A study of Homo sapiens with 6 samples.

Results

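Keratins form the intermediate filaments of epithelial cells, and the 44 keratin genes measured among 16418 genes in 6 human breast cancer cell lines are described here. They were taken as every entry named KRT followed by digits and an optional letter, and keratin-associated protein genes were left out. The 44 were read in 3 classes. The 6 simple keratins (*KRT7*, *KRT8*, *KRT18*, *KRT19*, *KRT20* and *KRT23*) belong to single-layered and glandular epithelia. The 8 basal keratins (*KRT5*, *KRT6A*, *KRT6B*, *KRT6C*, *KRT14*, *KRT15*, *KRT16* and *KRT17*) belong to basal, myoepithelial or activated cells of layered epithelia. The other 30 include keratins of differentiated epidermis and mucosa, of hair and its root sheath, and a few of broader or less studied expression.

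A keratin filament is built from heterodimers of a type I and a type II chain, so an epithelial cell needs at least 1 keratin of each type, and an unpaired chain is degraded. Of the 44 genes, 19 are type I and 25 are type II. The type II genes stand in a cluster on chromosome 12, which also holds the type I gene *KRT18*, for 26 genes in all, and the other 18 type I genes are on chromosome 17. In the breast, luminal cells typically make *KRT7*, *KRT8*, *KRT18* and *KRT19*, and basal or myoepithelial cells *KRT5*, *KRT14* and *KRT17*, which is why keratins are used to describe breast tumours.

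RNA was sequenced from 1 library a line. Without replicates there is no biological error to set a difference against, and no test was made. The labels give ductal carcinoma for T47D and UACC-812, adenocarcinoma for SKBR3 and MDA-MB-415, breast carcinoma for CAL51 and a metastatic carcinoma for MDA-MB-453. UACC-812 came from breast, MDA-MB-453 from a pericardial effusion and the others from pleural effusions, per the labels. None of the groups carries a stated genetic change or drug treatment, and each group is a single line. The medium held 10% fetal bovine serum for CAL51 and T47D, 15% for MDA-MB-415 and 20% for the other 3 lines. UACC-812 also received EGF at 20 ng/ml and MDA-MB-415 insulin at 10 mcg/ml, so medium and line cannot be told apart. In such bulk RNA, fewer cells that express a gene and less RNA per cell cannot be told apart either.

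Values are RPKM added up over each gene's exons, a unit inferred from the deposited values. Depth recovered from low values was 25600000 to 36500000 reads, and 3 reads in an exon of 221 bp, a length found in 38 of the 44 genes, were worth 0.372 to 0.530. That amount covers counting error only, and differences near it were not detectable. The epithelial marker *EPCAM* stood at 1329 to 3156 in the 6 lines, with CAL51 highest. Other epithelial markers went the other way there, with *CLDN4* at 2.64 and *CLDN7* at 5.64, each lowest in CAL51. Of the 5 epithelial markers, 3 each in CAL51 and MDA-MB-453 stood at least 2-fold below the median of the other lines. This held for 2 in SKBR3, 1 in T47D and 0 in UACC-812 and MDA-MB-415. In CAL51, 0 of the 5 stood 2-fold above that median. *VIM*, the mesenchymal filament gene, stood at 2810.2 in CAL51 and at 10.7 to 28.6 in the others. Summed over *VIM*, *ZEB1*, *CDH2* and *FN1*, mesenchymal markers came to 6805 in CAL51 and 89.9 to 407 in the other lines, and the cadherin gene *CDH1* was near 0 in SKBR3, at 0.823.

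Several keratins are near copies of each other, which limits what short reads can assign. *KRT6A*, *KRT6B* and *KRT6C* encode keratin 6 proteins of activated epithelium, and in GENCODE v29 their 1692 coding bases differ at 51 positions. *KRT6B* and *KRT6C* were 98.5% identical, *KRT6A* and *KRT6C* 97.9%, and *KRT6A* and *KRT6B* 97.5%. The 90 coding bases from 656 to 745, counted from the start codon on the coding strand of chromosome 12, are shown because they hold 10 of those positions, in capitals.
KRT6A: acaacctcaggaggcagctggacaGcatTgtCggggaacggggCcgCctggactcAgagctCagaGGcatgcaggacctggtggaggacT
KRT6B: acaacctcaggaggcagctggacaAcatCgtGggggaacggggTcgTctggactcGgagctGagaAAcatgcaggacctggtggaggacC
KRT6C: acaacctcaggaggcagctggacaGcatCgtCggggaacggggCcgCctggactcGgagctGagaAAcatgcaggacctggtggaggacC
In this stretch *KRT6B* and *KRT6C* differ at 4 bases and *KRT6A* and *KRT6C* at 6. *KRT6B* and *KRT6C* were listed with equal values in SKBR3 (8.48), MDA-MB-453 (5.05) and T47D (4.23), so their separate levels are uncertain. The hair keratin pairs *KRT37* and *KRT38* (91.6%) and *KRT81* and *KRT86* (90.1%) were the next closest and are uncertain for the same reason. *KRT83* was 89.3% identical to both *KRT81* and *KRT86*, under the 90% cut used below, so its separate level is uncertain too. *KRT14* and *KRT16* were 85.2% identical and *KRT14* and *KRT17* 78.4%.

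Simple keratins made up most keratin RNA in all 6 lines. With each value divided by the gene's number of exons, which allows different genes to be added, they were 98.1% of summed keratin level in UACC-812, 78.6% for MDA-MB-415, 91.4% for SKBR3, 98.0% for MDA-MB-453, 97.9% for T47D and 98.2% for CAL51. Basal keratins took 11.8% in MDA-MB-415 and 0.0746% to 1.02% in the other lines. The other class took 9.58% in MDA-MB-415, 8.01% in SKBR3 and 1.02% to 1.73% elsewhere. The summed level per exon was 13507 in UACC-812, 10297 in T47D, 5069 in SKBR3, 4366 in MDA-MB-415, 2957 in CAL51 and 1919 in MDA-MB-453. Type I genes held 43.2% of it in UACC-812, 50.2% for MDA-MB-415, 61.3% for SKBR3, 64.7% for MDA-MB-453, 59.4% for T47D and 49.3% for CAL51. Summed as deposited, without dividing by exons, the type I share was 35.7% to 57.0% and again highest in MDA-MB-453.

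**Figure D1:**
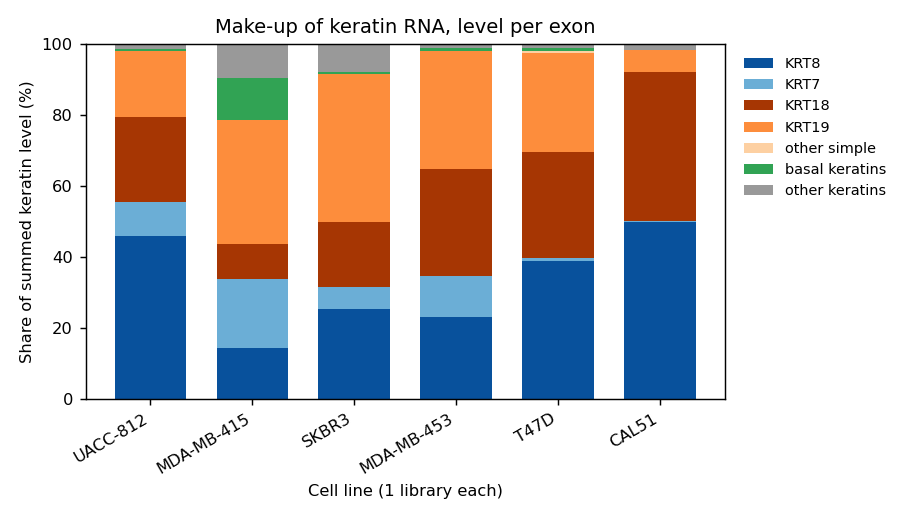
Share of the summed keratin level (percent, value divided by exon number) taken by *KRT8*, *KRT7*, *KRT18*, *KRT19*, the other simple keratins, the basal and the other keratins in the 6 lines, 1 library each. Simple keratins take 78.6% in MDA-MB-415 and 91.4% to 98.2% in the other lines, and *KRT19* takes 6.19% in CAL51.

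*KRT8* and *KRT18* encode the pair that most simple epithelia make first. *KRT8* stood at 55731 for UACC-812, 5596 for MDA-MB-415, 11581 for SKBR3, 3962 for MDA-MB-453, 35859 for T47D and 13266 for CAL51. *KRT18* stood at 22564, 3039.9, 6545, 4049.6, 21485 and 8702 in the same order. UACC-812 and T47D were the highest lines for both genes, and MDA-MB-453 and MDA-MB-415 the lowest. *KRT8* was 0.978 times *KRT18* in MDA-MB-453 and 1.52 to 2.47 times it in the other lines, as deposited. The genes are neighbours on opposite strands and share 525 exon bases in GENCODE v29, so some reads could belong to either.

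*KRT19* encodes a small type I keratin common in ducts, and *KRT7* a type II keratin of glandular epithelia. *KRT19* stood at 15171 for UACC-812, 9169 for MDA-MB-415, 12638 for SKBR3, 3824 for MDA-MB-453, 17305 for T47D and 1098 for CAL51. *KRT7* stood at 11739.7, 7599, 2745, 2009, 866 and 33.9 in the same order. CAL51 was lowest for both genes, while its *KRT8* and *KRT18* were above those of SKBR3, MDA-MB-415 and MDA-MB-453. T47D, the highest line for *KRT19*, was the second lowest for *KRT7*. Per exon, *KRT7* thus held 19.3% of keratin level in MDA-MB-415, 11.6% for MDA-MB-453, 9.66% for UACC-812, 6.02% for SKBR3 and 0.935% for T47D. *KRT19* kept a nearly constant ratio to its neighbour *JUP*, which is no keratin, in the lines other than CAL51. Its level and share are read with this in view, as described below.

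The remaining simple keratins were low in most lines. *KRT23*, a type I keratin, stood at 455 in T47D, 9.93 in UACC-812, 8.92 in MDA-MB-453, 7.33 in SKBR3 and 1.76 in MDA-MB-415, and was listed at 0 in CAL51. The lead of T47D over the next line was 41.7-fold on the value + 1 scale. *KRT20*, a keratin of intestinal and urothelial cells, stood at 18.4 in MDA-MB-415 and 0.0764 in T47D, below what 3 reads are worth there, and was listed at 0 in the other 4 lines.

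Basal keratins stood highest in MDA-MB-415, with *KRT14* as the exception. *KRT5*, the type II keratin of basal cells, stood at 244 in MDA-MB-415, 10.9 in UACC-812, 3.52 in MDA-MB-453, 2.26 in SKBR3 and 2.20 in T47D, and was listed at 0 in CAL51. *KRT6A* stood at 1084 in MDA-MB-415, 19.0 in UACC-812, 3.37 in SKBR3, 3.02 in T47D and 2.47 in MDA-MB-453, and was listed at 0 in CAL51. *KRT6B* stood at 752 in MDA-MB-415, 27.6 in UACC-812, 8.48 in SKBR3, 5.05 in MDA-MB-453 and 4.23 in T47D, with CAL51 listed at 0. *KRT6C*, whose sequence differs little from it, stood at 749 in MDA-MB-415, 27.6 in UACC-812, 8.48 in SKBR3, 5.05 in MDA-MB-453 and 4.23 in T47D, with CAL51 again listed at 0. The lead of MDA-MB-415 over UACC-812, the next line for these 4 genes, was 20.6-fold for *KRT5*, 54.3-fold for *KRT6A*, 26.4-fold for *KRT6B* and 26.2-fold for *KRT6C* on the value + 1 scale.

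The type I basal keratins lay closer together over the 5 lines other than CAL51. *KRT16*, the usual partner of keratin 6, stood at 725 in MDA-MB-415, 115 in T47D, 85.5 in UACC-812, 41.9 in MDA-MB-453, 38.1 in SKBR3 and 0.868 in CAL51. *KRT17*, found in basal and activated cells, stood at 459, 149.7, 111, 52.9, 54.1 and 15.9 in the same order of lines. *KRT15*, a keratin of basal and progenitor cells, stood at 341 in MDA-MB-415, 321 in T47D, 147 in UACC-812, 81.9 in SKBR3, 8.23 in MDA-MB-453 and 0.830 in CAL51. *KRT14*, the usual partner of *KRT5*, stood at 109 in T47D, 91.7 in MDA-MB-415, 81.7 in UACC-812, 38.5 in MDA-MB-453 and 36.2 in SKBR3, and was listed at 0 in CAL51. The listed values of the partners *KRT5* and *KRT14* did not follow each other. *KRT5* was 2.67 times *KRT14* in MDA-MB-415 and 0.0202 to 0.134 times it in the other 4 lines with both. In those 4 lines *KRT14* kept nearly 1 ratio to its neighbours *GAST* and *HAP1*, which are no keratins, as described below. Its level there is therefore uncertain as a measure of a basal keratin.

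**Figure D2:**
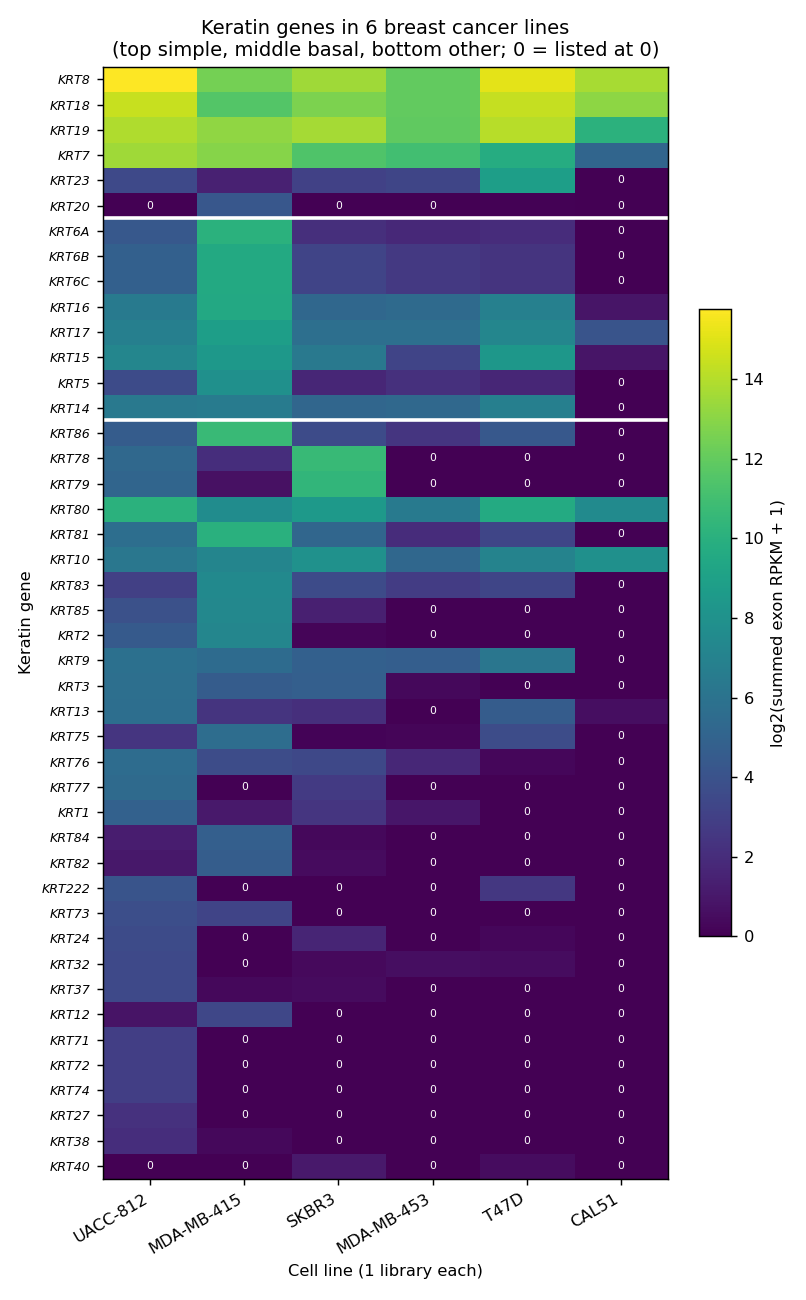
log2(summed exon RPKM + 1), as colour, for 44 keratin genes (rows, by class and highest level) in 6 lines (columns, 1 library each), with 0 written where a gene is listed at 0. *KRT8*, *KRT18* and *KRT19* are high in every column, the *KRT6* genes stand out in MDA-MB-415, *KRT78* and *KRT79* in SKBR3, and CAL51 has 34 genes listed at 0.

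Hair keratins, which harden the hair shaft, were also highest in MDA-MB-415 where they reached 20. *KRT86* stood at 1671 in MDA-MB-415, 22.7 in UACC-812, 19.6 in T47D, 11.3 in SKBR3 and 4.42 in MDA-MB-453. *KRT81* stood at 1021 in MDA-MB-415, 50.4 in UACC-812, 35.8 in SKBR3, 8.71 in T47D and 2.98 in MDA-MB-453. *KRT83* stood at 176 for MDA-MB-415, 10.9 for SKBR3, 8.67 for T47D, 6.87 for UACC-812 and 5.94 for MDA-MB-453. All 3 genes were listed at 0 in CAL51, and MDA-MB-415 led the next line 70.5-fold for *KRT86*, 19.9-fold for *KRT81* and 14.8-fold for *KRT83* on the value + 1 scale.

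*KRT85*, a hair matrix and cuticle keratin, stood at 165 in MDA-MB-415, 14.0 in UACC-812 and 1.61 in SKBR3. *KRT84* stood at 26.1, 1.41 and 0.268 and *KRT82* at 23.8, 1.06 and 0.403 in those lines. These 3 genes, which are neighbours on chromosome 12, were listed at 0 in MDA-MB-453, T47D and CAL51, and led in MDA-MB-415 by 11.1-fold, 11.2-fold and 12.1-fold on the value + 1 scale. Since they stood high together, their RefSeq promoters (GRCh38.p14, 250 bases before to 50 after the start, minus strand) are shown, with TATAAA and CCAAT on either strand in capitals.
KRT85, chr12:52367432-52367731: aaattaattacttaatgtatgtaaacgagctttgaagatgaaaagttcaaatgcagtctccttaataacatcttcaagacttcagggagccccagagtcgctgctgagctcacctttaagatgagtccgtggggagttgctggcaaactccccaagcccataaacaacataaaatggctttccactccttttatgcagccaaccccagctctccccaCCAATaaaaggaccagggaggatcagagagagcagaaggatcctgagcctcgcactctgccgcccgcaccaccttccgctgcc
KRT84, chr12:52385603-52385902: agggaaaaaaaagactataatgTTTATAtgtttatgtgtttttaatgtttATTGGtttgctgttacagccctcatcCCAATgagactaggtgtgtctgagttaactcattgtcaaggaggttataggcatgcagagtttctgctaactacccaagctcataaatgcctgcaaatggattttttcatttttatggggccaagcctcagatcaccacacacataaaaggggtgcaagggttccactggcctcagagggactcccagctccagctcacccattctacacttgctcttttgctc
KRT82, chr12:52406286-52406585: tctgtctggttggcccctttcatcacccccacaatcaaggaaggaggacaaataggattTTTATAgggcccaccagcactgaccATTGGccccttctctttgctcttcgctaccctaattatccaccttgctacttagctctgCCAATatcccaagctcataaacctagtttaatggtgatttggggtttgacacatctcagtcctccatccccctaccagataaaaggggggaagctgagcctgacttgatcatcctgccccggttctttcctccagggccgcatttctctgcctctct
The CCAAT letters occur in all 3 and the TATAAA letters in *KRT82* and *KRT84*, on the strand opposite to the gene, and the 2 motifs do not overlap in these windows. Promoters were found for 23 of the 44 keratin genes. TATAAA was in 11 of these 23 (47.8%) and in 11.5% of all 35116 promoters of the same length, and CCAAT in 10 (43.5%) and 34.6%. The Sp1 letters GGGCGG were in 6 (26.1%) and 45.0%, the AP-2 letters GCCNNNGGC in 4 (17.4%) and 23.2%, and the AP-1 letters TGANTCA in 0 and 7.71%, all searched on both strands. A match is a string of letters and was not tied to binding here.

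*KRT75*, a keratin of the hair follicle, stood at 48.1 in MDA-MB-415, 11.7 in T47D, 4.40 in UACC-812, 0.137 in MDA-MB-453 and 0.134 in SKBR3, and was listed at 0 in CAL51. *KRT2*, of the upper epidermis, stood at 149 in MDA-MB-415, 21.3 in UACC-812 and 0.172 in SKBR3, and was listed at 0 in the other 3 lines. Both again had MDA-MB-415 as their highest line.

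SKBR3 stood apart through a pair of neighbouring type II genes. *KRT78* stood at 1553 for SKBR3, 40.0 for UACC-812 and 3.12 for MDA-MB-415. *KRT79*, expressed in skin appendages, stood at 1305, 33.6 and 0.602 in those lines. Both genes were listed at 0 in MDA-MB-453, T47D and CAL51, and SKBR3 led UACC-812 by 37.9-fold and 37.7-fold on the value + 1 scale. *KRT78* was 1.19 times *KRT79* in both SKBR3 and UACC-812. Per exon, *KRT78* stood at 172.552 in SKBR3, above *KRT80* at 40.468 and *KRT10* at 32.008 there, and below *KRT7* at 304.954.

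*KRT1*, *KRT3*, *KRT13*, *KRT76* and *KRT77* had UACC-812 as their highest line. *KRT1*, the suprabasal type II keratin, stood at 28.7 for UACC-812, 4.47 for SKBR3, 1.13 for MDA-MB-415 and 0.935 for MDA-MB-453, and was listed at 0 for T47D and CAL51. *KRT3*, a corneal keratin, stood at 53.6 for UACC-812, 26.9 for SKBR3, 23.3 for MDA-MB-415 and 0.267 for MDA-MB-453, with T47D and CAL51 listed at 0. *KRT76*, of oral mucosa, stood at 46.9 for UACC-812, 11.5 for MDA-MB-415, 9.76 for SKBR3, 2.37 for MDA-MB-453 and 0.212 for T47D, with CAL51 listed at 0.

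*KRT77*, of sweat gland ducts, stood at 42.3 in UACC-812 and 5.36 in SKBR3, and was listed at 0 in the other 4 lines. *KRT13*, the mucosal type I keratin, stood at 49.9 in UACC-812, 23.3 in T47D, 4.08 in MDA-MB-415, 3.43 in SKBR3 and 0.505 in CAL51, and was listed at 0 in MDA-MB-453. *KRT9*, of palm and sole skin, differed from these in having T47D highest, at 73.3, with 54.4 for UACC-812, 44.9 for MDA-MB-415, 27.0 for SKBR3 and 25.7 for MDA-MB-453, and CAL51 listed at 0.

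In the other class, *KRT80* and *KRT10* were above 0 in every line. *KRT80*, a type II keratin of broad epithelial expression, stood at 1080.0 in UACC-812, 802 in T47D, 364 in SKBR3, 206 in MDA-MB-415, 185 in CAL51 and 88.1 in MDA-MB-453. *KRT10*, the usual partner of *KRT1*, stood at 256 for SKBR3, 244 for CAL51, 144 for MDA-MB-415, 129.7 for T47D, 73.6 for UACC-812 and 36.9 for MDA-MB-453. *KRT10* thus stood high in CAL51, where its partner *KRT1* was listed at 0, and *KRT10* shares 56 exon bases with *TMEM99* in GENCODE v29.

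The 13 genes that stayed under 20 in every line were *KRT20*, described above, and 12 of the other class. *KRT222* reached 16.2, *KRT73* 13.1, *KRT24* 11.0, *KRT32* 10.2, *KRT37* 10.1, *KRT27* 3.65 and *KRT38* 3.10, each in UACC-812. *KRT71*, *KRT72* and *KRT74*, inner root sheath keratins, were each listed at 6.49 in UACC-812 and at 0 in every other line, so their separate levels are uncertain. *KRT12*, a corneal keratin, reached 9.03 in MDA-MB-415, and *KRT40* reached 1.07 in SKBR3.

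The number of keratins above 0 was 42 for UACC-812, 35 for MDA-MB-415, 35 for SKBR3, 27 for T47D, 24 for MDA-MB-453 and 10 for CAL51. These counts include values under what 3 reads are worth, such as *KRT75* at 0.134 in SKBR3. Above 1, the counts were 41, 32, 29, 22, 20 and 7 in the same order of lines. CAL51 had 34 of 44 (77.3%) listed at 0 against 11.7% of all genes, and MDA-MB-453 had 20 (45.5%) against 10.8%. T47D had 17 (38.6%) against 8.47%, SKBR3 9 (20.5%) against 9.68%, MDA-MB-415 9 (20.5%) against 5.97% and UACC-812 2 (4.55%) against 6.80%. The 10 above 0 in CAL51 were *KRT7*, *KRT8*, *KRT10*, *KRT13*, *KRT15*, *KRT16*, *KRT17*, *KRT18*, *KRT19* and *KRT80*. UACC-812 was the highest line for 19 of the 44, MDA-MB-415 for 17, SKBR3 and T47D for 4 each, and neither MDA-MB-453 nor CAL51 for any.

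Counts of keratins beyond every other line were then set beside the same share of all genes, with a line called apart at 4-fold on the log2(value + 1) scale. In MDA-MB-415, 14 of 44 keratins (31.8%) stood at least 4-fold above every other line, against 3.69% of all genes. They were *KRT2*, *KRT5*, *KRT6A*, *KRT6B*, *KRT6C*, *KRT12*, *KRT16*, *KRT20*, *KRT81*, *KRT82*, *KRT83*, *KRT84*, *KRT85* and *KRT86*, and 9 remained in a count without the 7 members that are at least 90% identical to another. Among the 9 is *KRT83*, which is 89.3% identical to *KRT81* and *KRT86*. In UACC-812 there were 8 (18.2%), against 1.80%, all of the other class, and just 1 with a pseudocount of 5. The 8 include *KRT71*, *KRT72* and *KRT74*, whose equal value of 6.49 makes them uncertain as separate genes. With *KRT1* and *KRT77*, they stand in a chromosome 12 run, described below, where UACC-812 values stood higher along the gene order. A count without that run was not made. Without MDA-MB-415 the UACC-812 count was 15. SKBR3 had 2 (4.55%), *KRT78* and *KRT79*, against 0.530%. T47D had 1 (2.27%), *KRT23*, against 0.834%, and 3 without UACC-812. MDA-MB-453 and CAL51 had 0, against 0.408% and 4.01%.

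In the other direction, CAL51 stood at least 4-fold below every other line for 9 keratins (20.5%), against 1.97% of all genes. They were *KRT7*, *KRT9*, *KRT14*, *KRT15*, *KRT16*, *KRT6B*, *KRT6C*, *KRT83* and *KRT86*, and 4 genes passed with a pseudocount of 5. The count was 6 without the members that are at least 90% identical to another. It was also 6 without *KRT9*, *KRT14*, *KRT16* and *KRT17*, whose levels in other lines are uncertain, as described below. The 2 sets were not left out together. No keratin stood so low in UACC-812, MDA-MB-415, SKBR3, MDA-MB-453 or T47D, against 0.189%, 0.780%, 1.94%, 0.956% and 0.347% of all genes. MDA-MB-453 had 2 once CAL51 was left out and 1 with a pseudocount of 0.1.

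**Figure D3:**
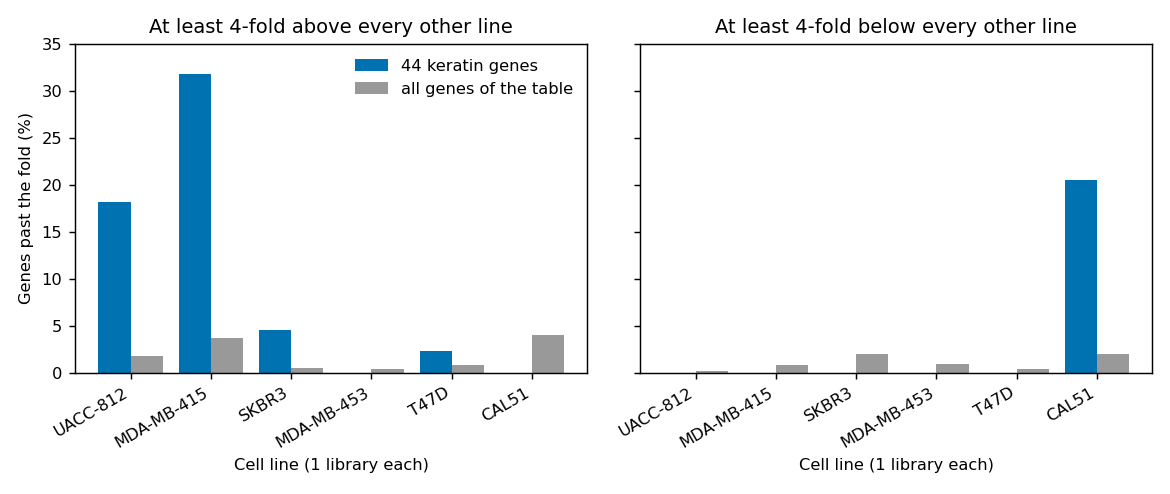
Percent of the 44 keratin genes (blue) and of all 16418 genes (grey) at least 4-fold above (left) or below (right) every other line, by line, 1 library each. Above, 14 keratins pass in MDA-MB-415 and 8 in UACC-812, and below, 9 pass in CAL51 and 0 in the other lines.

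The median of the other lines was then the reference, with 2-fold as the call. UACC-812 had 34 keratins above (77.3%), against 24.7% of all genes, and 0 below, against 10.3%. MDA-MB-415 had 23 above (52.3%), against 19.7%. It had 3 below (6.82%), *KRT8*, *KRT18* and *KRT23*, against 18.8%. The count below became 8 without MDA-MB-453 or CAL51 and 5 without T47D. MDA-MB-453 had 0 above, against 12.9%, and 17 below (38.6%), against 15.9%. The count below became 11 without UACC-812 and 26 without CAL51. CAL51 had 0 above, against 26.0%, and 22 below, against 14.5%. The share of calls that were above thus ran from 100% in UACC-812 to 0% in MDA-MB-453 and CAL51.

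The calls of SKBR3 and T47D depended on scaling. SKBR3 had 10 above (22.7%), against 9.41% of all genes. It had 4 below (9.09%), *KRT14*, *KRT16*, *KRT17* and *KRT75*, against 33.2%. Its share above was 71.4%, and 94.4% (17 above, 1 below) with TMM scaling, 94.1% with median-of-ratios and 93.8% with upper-quartile scaling. The count below was 1 without UACC-812 and 11 without MDA-MB-453 or CAL51. T47D had 12 above (27.3%), against 18.1%, and 7 below (15.9%), against 10.1%, with a share above of 63.2%. The count above was 8 without *KRT9*, *KRT14*, *KRT16* and *KRT17*. That share was 47.1% with TMM or median-of-ratios and 52.6% with upper-quartile scaling, and the count below was 12, 14 and 15 without SKBR3, MDA-MB-453 and CAL51.

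By class, the median log2 deviation of basal keratins from the median of the other lines was 5.16 in MDA-MB-415, 1.47 in UACC-812, 0.66 in T47D, -0.65 in SKBR3, -0.83 in MDA-MB-453 and -3.24 in CAL51. Without the 4 type I genes *KRT9*, *KRT14*, *KRT16* and *KRT17*, described below with their neighbours, the basal median was 6.95 in MDA-MB-415 and 2.24 in UACC-812, and it turned to -0.5 in T47D and 0.12 in SKBR3. The T47D value also turned to -0.06, -0.01 and -0.14 without SKBR3, MDA-MB-453 and CAL51, and was 0.04 with TMM scaling, so no direction is read from it. Without the near-identical genes the basal median was 3.06 in MDA-MB-415, -5.53 in CAL51 and 1.45 in T47D. For simple keratins it was -1.66 for CAL51, -0.85 for MDA-MB-415, -0.78 for MDA-MB-453, -0.10 for SKBR3, 1.26 for UACC-812 and 1.27 for T47D. For the other class it was 2.90 for UACC-812, 0.51 for MDA-MB-415, 0.42 for SKBR3, 0.00 for T47D, -0.34 for MDA-MB-453 and -0.42 for CAL51. Over all genes it was 0.19 for UACC-812, -0.01 for MDA-MB-415, -0.46 for SKBR3, 0.00 for MDA-MB-453, 0.09 for T47D and 0.23 for CAL51, and that shift was at most 0.03 with TMM or median-of-ratios scaling. With TMM scaling the UACC-812 medians came to 0.97 for simple and 0.77 for basal keratins, under the 2-fold line, and the simple median of CAL51 to -0.74 with a pseudocount of 5. The simple median of SKBR3 turned to 0.67 with TMM scaling. In MDA-MB-415 all 8 basal keratins were 2-fold above the other lines' median, while simple keratins went both ways, with *KRT7* and *KRT20* above and *KRT8*, *KRT18* and *KRT23* below. In CAL51 all 8 basal keratins were 2-fold below, with 3 of 6 simple and 11 of 30 other keratins, while *KRT8* and *KRT18* stood 0.20 and 0.41 above on the log2 scale.

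Levels were also read along the gene order of the chromosome 12 cluster, where all 25 type II genes have 9 exons. In MDA-MB-415 the 11 consecutive genes from *KRT86* to *KRT5* stood between 23.8 and 1671, and the next 3, *KRT71*, *KRT74* and *KRT72*, were listed at 0. In UACC-812 the values stood higher gene by gene along the order, with *KRT71*, *KRT74* and *KRT72* each at 6.49, *KRT73* at 13.1, *KRT2* at 21.3, *KRT1* at 28.7, *KRT77* at 42.3, *KRT76* at 46.9 and *KRT3* at 53.6. In SKBR3 they went from 0.172 at *KRT2* through 4.47, 5.36, 9.76 and 26.9 to 1305 at *KRT79* and 1553 at *KRT78*. The order on the chromosome was thus also the order of level from *KRT2* to *KRT3* in UACC-812 and from *KRT2* to *KRT78* in SKBR3. It did not go on in UACC-812, where *KRT79* stood at 33.6 and *KRT78* at 40.0.

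**Figure D4:**
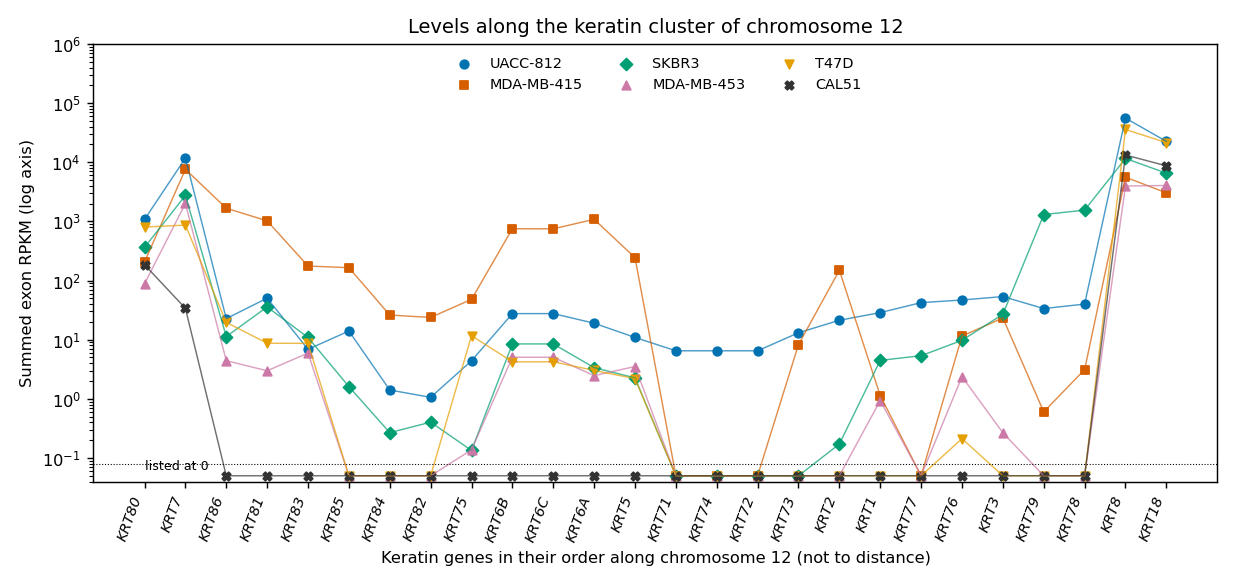
Summed exon RPKM (log axis, values listed at 0 under the dotted line) of 26 keratin genes in their order on chromosome 12, 1 line and marker for each cell line. In UACC-812 the values go from 6.49 at *KRT71* to 53.6 at *KRT3*, in MDA-MB-415 the genes from *KRT86* to *KRT5* are at 23.8 or more, and in SKBR3 *KRT79* and *KRT78* are at 1305 and 1553.

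A different pattern, of ratios between genes kept across lines, was seen on chromosome 17. There *KRT15*, *KRT19*, *KRT9*, *KRT14*, *KRT16* and *KRT17* are followed by the genes *EIF1*, *GAST*, *HAP1* and *JUP*, none of them a keratin. *KRT16* was 1.05, 1.05, 1.09 and 1.06 times *KRT14* in UACC-812, SKBR3, MDA-MB-453 and T47D, and 7.91 times it in MDA-MB-415. *KRT17* was 1.35, 1.49, 1.37 and 1.38 times *KRT14* in those 4 lines and 5.01 times it in MDA-MB-415. *KRT9* was 0.666 to 0.746 times *KRT14* in the 4 lines and 0.490 times it in MDA-MB-415. The 4 keratins thus kept nearly 1 ratio in 4 lines.

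Of the neighbours that are no keratins, *GAST* and *HAP1* did so too, and *EIF1* did not. *GAST*, the gene of the stomach hormone gastrin, was 0.372 to 0.404 times *KRT14* in the same 4 lines and 0.253 times it in MDA-MB-415. *HAP1*, a huntingtin-associated protein gene, was 1.94 to 2.25 times *KRT14* in the 4 lines and 1.22 times it in MDA-MB-415. Relative to *KRT14*, *KRT9*, *GAST* and *HAP1* were thus all lower in MDA-MB-415, where they stood at 44.9, 23.2 and 112. In UACC-812 they stood at 54.4, 30.4 and 175. *KRT9* therefore kept near these neighbours in MDA-MB-415 also. In CAL51, *KRT9*, *KRT14* and *GAST* were listed at 0, with *HAP1* at 0.653. *EIF1*, a translation factor gene that stands between *KRT17* and *GAST*, was 14.0 to 50.3 times *KRT14* in the 4 lines, at levels of 802 to 2361 over all 6. *JUP*, the gene of the desmosome and adherens junction protein plakoglobin, was 1.06 to 1.22 times *KRT19* in 5 lines and 1.49 times it in CAL51. GENCODE v29, which is not the authors' build, gives no exon bases shared by these keratins with each other or with these neighbours. Pairs among the neighbours were not compared. The levels of *KRT9*, *KRT14*, *KRT16* and *KRT17* in the 4 lines, and of *KRT9* in MDA-MB-415, are read with the shared ratios in view. So is the level of *KRT19*, which kept near *JUP* in the lines other than CAL51. What set the shared ratios was not tested.

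**Figure D5:**
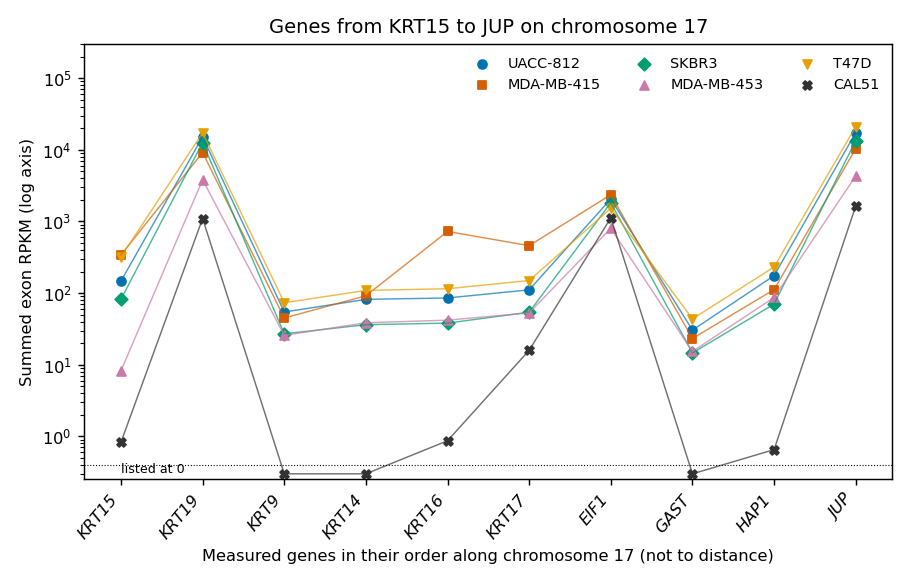
Summed exon RPKM (log axis, values listed at 0 under the dotted line) of the 10 measured genes from *KRT15* to *JUP* in their order on chromosome 17, by line, 1 library each. The lines of UACC-812, SKBR3, MDA-MB-453 and T47D run nearly parallel from *KRT9* to *KRT17* and at *GAST* and *HAP1*, while MDA-MB-415 is higher at *KRT16* and *KRT17*.

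Genes that work with keratins were read in groups, by the same 2-fold call and beside the same shares of all genes. Those shares were, above, 26.0% for CAL51, 24.7% for UACC-812, 19.7% for MDA-MB-415, 18.1% for T47D, 12.9% for MDA-MB-453 and 9.41% for SKBR3. Below, they were 33.2% for SKBR3, 18.8% for MDA-MB-415, 15.9% for MDA-MB-453, 14.5% for CAL51, 10.3% for UACC-812 and 10.1% for T47D. Of 12 measured desmosome genes, which anchor keratin filaments at cell contacts, 4 were above in SKBR3, 3 each in MDA-MB-415 and T47D, 1 each in UACC-812 and CAL51 and 0 in MDA-MB-453. Below were 4 for CAL51, 3 for MDA-MB-453, 2 for MDA-MB-415, 1 for T47D and 0 for UACC-812 and SKBR3. *PKP1*, the plakophilin of layered epithelia, stood at 1098 in MDA-MB-415, 40.4 in SKBR3, 4.60 in UACC-812 and 3.47 in MDA-MB-453, and was listed at 0 in T47D and CAL51. *DSP*, which links keratins to the desmosome, stood at 3904 in T47D, 1579 in UACC-812, 1542 in CAL51, 1412 in MDA-MB-415, 1043 in SKBR3 and 199.5 in MDA-MB-453. *DSC2*, a desmosomal cadherin gene, stood at 1236 in SKBR3, 132 to 331 in 4 lines and 0.134 in CAL51.

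Of 15 keratin linker genes, 7 were above in MDA-MB-415, 6 in UACC-812, 4 in T47D, 3 in MDA-MB-453, 1 in CAL51 and 0 in SKBR3. Below were 9 in SKBR3, 5 in MDA-MB-453, 4 in CAL51, 3 in T47D and 1 each in UACC-812 and MDA-MB-415. *COL17A1*, a hemidesmosome collagen of basal cells, stood at 555 in MDA-MB-415, 20.2 in UACC-812, 12.7 in CAL51 and 8.72 in SKBR3, and was listed at 0 in MDA-MB-453 and T47D. *ITGA6*, the hemidesmosome integrin, stood at 1966 for MDA-MB-415, 1893 for CAL51, 1139 for MDA-MB-453, 277 for UACC-812, 219 for T47D and 1.84 for SKBR3. *ITGA6* was therefore high in CAL51, where *KRT5* and *KRT14* were listed at 0.

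Of 20 regulators of keratin genes, 10 were above in MDA-MB-415, 7 each in UACC-812 and MDA-MB-453, 5 in T47D, 4 in SKBR3 and 3 in CAL51. Below were 10 in CAL51, 6 in MDA-MB-415, 5 each in SKBR3 and MDA-MB-453, 4 in T47D and 3 in UACC-812. *TP63*, the basal cell transcription factor known to drive *KRT5* and *KRT14*, stood at 73.5 for MDA-MB-415, 19.3 for MDA-MB-453, 1.34 for SKBR3, 1.23 for T47D and 0.0381 for UACC-812, and was listed at 0 for CAL51. MDA-MB-453, second for *TP63*, had *KRT5* at 3.52. *GRHL2*, an epithelial transcription factor, stood at 0.536 in CAL51 and 87.1 to 874 in the others.

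Of 14 cornified envelope genes measured, 11 were above in MDA-MB-415, 3 in UACC-812, 1 each in SKBR3, MDA-MB-453 and T47D and 0 in CAL51. Below were 3 each in MDA-MB-453 and CAL51, 1 each in MDA-MB-415 and SKBR3 and 0 in the other lines. *SPRR2A* stood at 57.9 in MDA-MB-415 and 0.123 in UACC-812, and *TGM3*, a transglutaminase, at 59.8 in MDA-MB-415, each listed at 0 in the other lines. The 7 measured keratinocyte differentiation markers summed to 202 in MDA-MB-415, 151 in UACC-812 and 11.1 to 52.8 in the other lines, with 5 of 7 at least 2-fold above in MDA-MB-415. *TGM1* alone was 139 of the UACC-812 sum and stood at 6.84 in MDA-MB-415, and *IVL* and *DSG3* were low in every line, at most 3.06 and 2.06. The part of such cells in the keratin levels was not tested. Of the other markers, the 5 fibroblast genes summed to 181 in MDA-MB-415 and 11.3 to 285 elsewhere. In MDA-MB-415 2 of them were listed at 0, and 2 to 4 in the other lines. *COL1A1* was 168 of the MDA-MB-415 sum, and *DCN* stood at 11.1 there and was listed at 0 in every other line. The 5 leukocyte genes summed to 183 in MDA-MB-415, of which *CD14* was 176, and to 0.219 to 40.6 elsewhere. *PTPRC*, the defining leukocyte gene, stood at 18.8 in CAL51, 2.76 in SKBR3, 2.43 in MDA-MB-453 and 0.489 in MDA-MB-415. It was listed at 0 in UACC-812 and T47D.

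Of 15 genes of keratin turnover and modification, 8 were above in MDA-MB-415, 3 each in UACC-812 and T47D, 2 in CAL51 and 1 each in SKBR3 and MDA-MB-453. Below were 7 for SKBR3, 1 each in UACC-812 and T47D, 2 for MDA-MB-415, 3 for MDA-MB-453 and 4 for CAL51. *HSPB1*, a small heat shock protein gene, stood at 1601 in UACC-812, 546 in T47D, 249 in MDA-MB-415, 78.7 in SKBR3, 72.6 in CAL51 and 27.8 in MDA-MB-453. *SFN*, the 14-3-3 protein of epithelia, stood at 75.8 in MDA-MB-415 and 2.54 in CAL51, with 6.32 to 30.3 in the others. Of 11 other intermediate filament genes, 7 were above in CAL51, where *VIM* was the highest of the 6 lines, 5 in UACC-812, 4 in MDA-MB-453, 1 each in MDA-MB-415 and SKBR3 and 0 in T47D. Below were 5 each in MDA-MB-415 and SKBR3, 2 in MDA-MB-453 and 1 in each of the other lines. The lamin gene *LMNA* stood at 8196 in UACC-812 and at 513 to 3257 elsewhere.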

How the data were processed

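RNA from 6 breast cancer cell lines was extracted with Tri reagent, treated with DNase and made into libraries with the PrepX mRNA kit, as the labels' protocols say. The submitters' processing notes name CASAVA 1.8, RSEM and hg19, with no role or order. For aligner settings, annotation and filters, the sources used here give nothing. The deposited values were read as RPKM summed over exons by the authors, a unit inferred from the values, since no label states it. Single-exon genes with low values came to whole multiples of 1 read for 33.0% to 38.5% of genes, within 0.01 reads, against medians of 1.33% to 1.52% over other constants, and gave the depths. Whole reads per gene were not recovered, so no count model was used.

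Of 16444 entries, 22 with names turned into dates and 4 with repeated names were left out. Values were compared on log2(value + 1), which understates low genes. A deviation is the distance of a log2 value from the median over the 5 other lines. Genes listed at 0 get no fold against 0. Members reaching 20 in a line are given in every line, and the rest by their highest line. From each list of other genes, those with the widest range were named, of which 1 is not reported here, although counts include it. Members and lists were chosen with earlier results of these data known. Exon numbers, gene order and coding identity come from GENCODE v29 (GRCh38), not the authors' build, so no coordinates of the files are given. An exon number is that of a single chosen transcript per gene, and the levels per exon depend on that choice. Promoters come from RefSeq. Alternatives were pseudocounts of 0.1 and 5, 3 scalings, a minimum level of 5, leaving out each line, and leaving out near-identical or neighbouring members. Counting was tested on simulated data. Python 3.11.15, numpy 2.4.6, pandas 2.3.3 and Biopython 1.88 were used.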

Additional observations from a re-analysis of the deposited data

How the results depend on the processing

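Values rest on 1 library a line, so variation between cultures and between library preparations was not measured. The amount of 0.372 to 0.530, for 3 reads in a 221 bp exon, is a floor for counting at low values. It is not the error of higher values. No paired analysis was possible because each line has 1 library and the numbers pair nothing. A comparison by protein identity was not run and was replaced, after seeing the data, by coding identity. The alternative without the 4 type I genes between *KRT19* and *JUP* was also chosen after seeing the data. Of 2364 single keratin deviations under 14 settings, 2056 kept their side of the 2-fold line, 132 came under it and 170 went past it. Over all of them 100 lay on the other side of 0 from the reported value, and 6 of these were of values past the 2-fold line. The 6 were *KRT78* in MDA-MB-415 at -0.64 and *KRT85* in SKBR3 at -0.57, each without MDA-MB-453, T47D or CAL51, over ranges of -0.64 to 2.04 and -0.57 to 1.39 when 1 line was left out. Restricting to genes reaching 5 kept every count within 1.5 times and every class median on its side of the 2-fold line. The cause of the changes below was not tested.

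With a pseudocount of 0.1, the 2-fold-below counts were 5 in MDA-MB-415 and 12 in T47D, the 4-fold-below count 1 in MDA-MB-453, and the other-class medians -1.87 in CAL51, -1.56 in MDA-MB-453 and 1.86 in MDA-MB-415. With a pseudocount of 5, UACC-812 had 1 gene 4-fold above, SKBR3 6 above and 2 below, MDA-MB-453 10 below, T47D 4 below and CAL51 4 genes 4-fold below, with a simple median of -0.74. TMM gave UACC-812 1 below and medians of 0.97 (simple) and 0.77 (basal), SKBR3 17 above and 1 below, and simple medians of -1.2 in MDA-MB-453 and -1.01 in MDA-MB-415. Median-of-ratios gave UACC-812 1 below, 0.94 and 0.85, SKBR3 16 above and 1 below, and -1.17 in MDA-MB-453. Upper-quartile scaling gave UACC-812 1 below and a basal median of 0.99, SKBR3 1 below, and simple medians of -1.1 in MDA-MB-453 and -1.01 in MDA-MB-415. Without near-identical members, 9 keratins stood 4-fold above in MDA-MB-415, and basal medians were 3.06 in MDA-MB-415, -5.53 in CAL51, 1.45 in T47D, -1.05 in MDA-MB-453 and -1.02 in SKBR3. Without the 4 genes, SKBR3 had 1 below, T47D 8 above and CAL51 6 genes 4-fold below, and basal medians were 6.95 for MDA-MB-415, 2.24 for UACC-812, 0.12 for SKBR3 and -0.5 for T47D. The simple median of SKBR3 was 0.67, 0.56 and 0.52 under the 3 scalings and above 0 without UACC-812, MDA-MB-453 or T47D (0.55, 0.02 and 0.28).

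Leaving out each line gave these ranges. UACC-812 had 8 to 15 genes 4-fold above and 0 to 1 below. MDA-MB-415 had 3 to 8 below and simple medians of -1.23 to -0.37. SKBR3 had 1 to 11 below and basal medians of -1.2 to 0. MDA-MB-453 had 0 to 2 genes 4-fold below, 0 to 1 above and 11 to 26 below, with medians of -1.37 to -0.48 (simple), -1.35 to -0.36 (basal) and -1.12 to -0.17 (other). T47D had 1 to 3 genes 4-fold above and 5 to 15 below, with basal medians of -0.14 to 0.76. CAL51 had 0 to 1 above and other-class medians of -1.44 to -0.25.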
